A study of Homo sapiens with 9 samples.

Results

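The apolipoproteins APOA1, APOA2, APOA4, APOB, APOC1, APOC2, APOC3, APOE, APOH and APOM, proteins that hepatocytes secrete on or with lipoprotein particles, were compared between cells in which LATS1 or LATS2 was targeted and control cells. The 10 genes were picked by their Entrez gene numbers (335 for APOA1, 336 for APOA2, 337 for APOA4, 338 for APOB, 341 for APOC1, 344 for APOC2, 345 for APOC3, 348 for APOE, 350 for APOH and 55937 for APOM) and are 10 of the 20575 genes listed for every sample, and 9 of them were expressed highly enough to be tested. RNA-seq was done on Huh7 cells, an established line from a human hepatocellular carcinoma (HCC). The 9 samples comprise 3 siControl, 3 siLATS1 and 3 siLATS2 replicates, from which RNA was taken 48 h after the siRNA was delivered with the transfection reagent RNAiMAX. No other allele or agent is named in the labels, although the methods of the study also mention sorafenib for the sequenced cells, so the groups are called here by siRNA alone. All samples come from a single cell line, and a transient siRNA lowers its target without removing it.

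LATS1 and LATS2 are kinases of the Hippo pathway, which holds back the transcriptional coactivators YAP and TAZ. Apolipoproteins give lipoprotein particles their structure and steer their fate in blood. A single APOB molecule forms the scaffold of each very-low-density and low-density lipoprotein particle, APOA1 and APOA2 are the main proteins of high-density lipoprotein, and APOC1, APOC2, APOC3 and APOE move between particles, where they act on lipases or bind receptors. APOM carries sphingosine-1-phosphate on high-density lipoprotein, and APOH, also called beta-2-glycoprotein I, is a plasma protein that binds phospholipids.

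The genes lie in a few places of the genome, given here in GRCh37, the build the authors mapped to. APOA4, APOC3 and APOA1 sit side by side at chr11:116691416-116708338, and APOE, APOC1 and APOC2 at chr19:45409053-45452822. APOA2 lies at chr1:161192082-161193418, APOB at chr2:21224301-21266945, APOH at chr17:64208151-64225533 and APOM at chr6:31623671-31625987. APOB is by far the longest transcript, with 14121 bases in 29 exons, and the other 9 have 474 to 1471 bases in 3 to 8 exons. Their transcripts also span much of the range of base composition seen in human genes. The share of G and C was 69.0% in APOE, 63.0% in APOA1, 61.1% in APOA4, 59.1% in APOC3 and 57.8% in APOC1. It was 53.4% in APOA2, 52.0% in APOM, 50.9% in APOC2, 43.5% in APOB and 42.9% in APOH.

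Base composition enters several results below, so a coding stretch of 100 bases is shown for 4 members along this range. Each is the stretch of the longest inner coding exon whose composition comes closest to that of the whole transcript. It is read 5′ to 3′ on the strand of the gene, with every G and C in capitals. The APOE stretch is from exon 3 of 4 at chr19:45411017-45411116, plus strand, with 69% G and C, and the APOC1 stretch is from exon 3 of 4 at chr19:45419455-45419554, plus strand, with 58%. The APOA2 stretch is from exon 3 of 4 at chr1:161192719-161192818, minus strand, with 53%, and the APOH stretch is from exon 7 of 8 at chr17:64210584-64210683, minus strand, with 40%. Runs of capitals fill the APOE line and thin out towards APOH.
APOE: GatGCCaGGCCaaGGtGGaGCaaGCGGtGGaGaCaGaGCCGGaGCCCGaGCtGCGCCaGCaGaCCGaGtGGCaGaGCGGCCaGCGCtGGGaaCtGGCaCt
APOC1: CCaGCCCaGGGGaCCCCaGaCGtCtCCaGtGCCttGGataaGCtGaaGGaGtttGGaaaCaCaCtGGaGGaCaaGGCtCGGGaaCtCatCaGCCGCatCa
APOA2: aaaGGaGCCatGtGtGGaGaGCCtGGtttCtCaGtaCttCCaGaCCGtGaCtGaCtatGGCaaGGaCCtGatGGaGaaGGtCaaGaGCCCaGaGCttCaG
APOH: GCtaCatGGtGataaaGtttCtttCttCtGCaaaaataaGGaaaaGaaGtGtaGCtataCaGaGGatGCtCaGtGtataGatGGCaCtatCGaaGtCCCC

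The deposited value of a gene is its CPM, the reads counted over its exons brought to a common total for all samples. The samples held 23548247 to 32193525 reads. Values below are CPM further scaled with TMM factors (from a trimmed mean of M values, 0.957 to 1.057), unless another scale is named. All 12 hepatocyte markers examined passed the filter on low values, with summed levels of 13062 to 20439 CPM in siControl, 15102 to 19041 in siLATS1 and 12496 to 15968 in siLATS2, although haptoglobin (HP) reached only 2.81 CPM. Leukocyte markers summed to 20.3 to 29.99 CPM across the samples, most of it from LYZ, with up to 17.7 CPM, and CD14, with up to 12.1, while CD3E had at most 1 read. Endothelial markers summed to 0.723 to 2.77 CPM, with at most 1 read of CDH5, KDR or TEK. Stromal markers summed to 135 to 275 CPM, of which lumican (LUM) made up to 270.

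Levels differed widely between the members. Per kb of transcript, the median over the 9 samples was 215 CPM for APOC1, 178 for APOB, 155 for APOA2, 90.7 for APOA1, 79.9 for APOC2, 61.7 for APOE, 47.1 for APOH, 16.4 for APOC3, 8.38 for APOM and 0.146 for APOA4. In this order most neighbours did not differ beyond their spread over samples. The ranges were separate at only 2 steps, between APOH, whose lowest sample had 31.5 CPM per kb, and APOC3, whose highest had 31.1, and between APOM, with at least 6.60, and APOA4, with at most 0.273. APOB, second per length, took 85.7% of the summed mean CPM of the 10 genes because its transcript is long. It alone accounted for 0.167% to 0.438% of all counted reads and ranked between 4 and 33 among all genes of a sample.

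**Figure D1:**
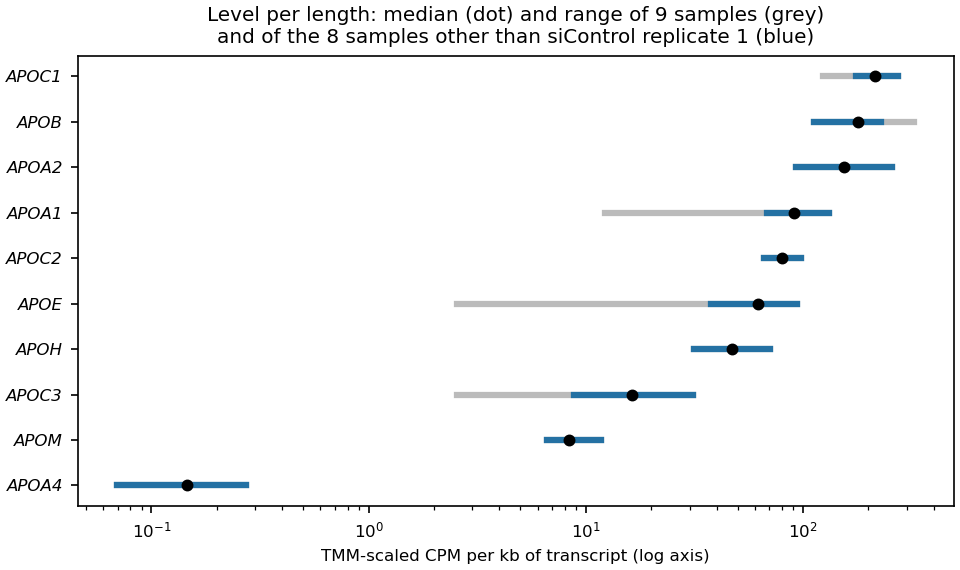
Level of the 10 apolipoprotein genes per kb of transcript, as TMM-scaled CPM on a log axis. Dots are the median of 9 samples, grey bars the range of all 9 and blue bars the range of the 8 samples other than siControl replicate 1; APOC1 leads with 215 and APOA4 is last with 0.146, and the grey tails of APOE, APOA1 and APOC3 come from siControl replicate 1.

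APOA4, a protein made mainly by the intestine, was close to absent. It had 3, 7 and 10 reads in the siControl samples, 3, 3 and 10 in siLATS1 and 6, 8 and 6 in siLATS2. These counts were below the filter of at least 1 CPM in at least 3 samples, the groups overlapped, and a difference in APOA4 was not detectable at this depth.

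Before the groups are compared, siControl replicate 1 has to be described, because it stood far from its group for several members. Pearson's r across all tested genes was 0.859 and 0.866 between this sample and siControl replicates 2 and 3, which had r = 0.995 with each other. APOE had 2.99 CPM in siControl replicate 1 and 44.1 to 109 CPM in the other 8 samples. APOA1 had 11.02 CPM there and 61.6 to 118 elsewhere, and APOC3 had 1.36 CPM there and 4.70 to 16.6 elsewhere. The means of siControl replicates 2 and 3 were 31.6 times (APOE), 7.38 times (APOA1) and 7.21 times (APOC3) the value of replicate 1. APOC1 was also lowest in this sample, with 63.6 CPM against 89.9 to 141 in the others. In the opposite direction, APOB was highest there, with 4572 CPM against 1577 to 3231.

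The sign and size of these departures moved with base composition across the whole transcriptome. On the log2(CPM + 1) scale, genes below 40% G and C were higher in siControl replicate 1 than in the mean of the other 8 samples, with a median difference of 0.80, and those of 65% or more were lower, with a median of -2.09. Between them the medians fell step by step, from 0.52 at 40 to 45% through 0.12, -0.42 and -1.13 to -1.91 at 60 to 65%. Among the apolipoproteins the same difference was -4.19 for APOE, -2.83 for APOA1, -2.12 for APOC3, -0.86 for APOC1 and -0.59 for APOA2. It was -0.06 for APOM, -0.09 for APOC2, 0.44 for APOH and 0.88 for APOB. APOE went further than its band, in which only 1.81% of the genes lay lower in that sample, whereas APOA1, APOC3 and APOC1 had 14.4%, 7.14% and 68.0% of their bands below them. The other 8 samples also sloped with base composition, more weakly and in both directions, with medians from -0.49 in siLATS1 replicate 1 to 0.87 in siLATS1 replicate 3 for genes of 65% or more.

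**Figure D2:**
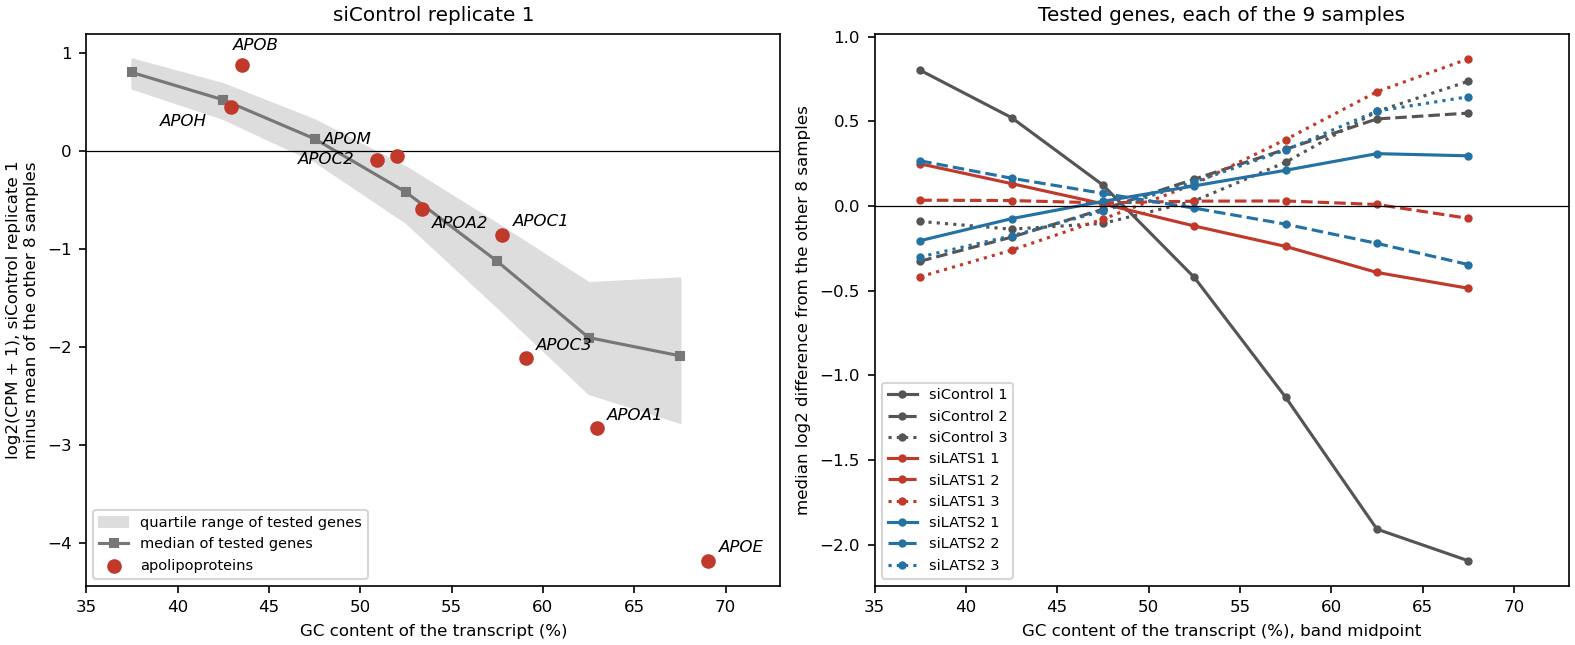
Left, the log2(CPM + 1) difference of siControl replicate 1 from the mean of the other 8 samples against transcript GC content, with 9 apolipoproteins as points, the median of tested genes per GC band as a line and the range between their quartiles as a grey area. Right, the median difference of each sample from the other 8 by GC band; the line of siControl replicate 1 runs from 0.80 to -2.09, while the other 8 lines stay between -0.49 and 0.87 at both ends.

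What produced this dependence was not tested. Each comparison below is therefore given over all 9 samples, without siControl replicate 1, and after a GC correction in which the smooth curve of each sample's deviation against transcript GC content was subtracted. This correction was chosen after the data were seen, and by its construction it also removes any difference between groups that follows GC content. It brought the 8 samples other than siControl replicate 1 together for APOE, whose range over them shrank from 1.29 to 0.21 on the log2 scale, but siControl replicate 1 still lay lowest, at 4.37 against 5.79 to 6.002. The range over the 3 siControl samples shrank from 4.68 to 1.51 for APOE, from 2.87 to 0.67 for APOA1 and from 2.33 to 0.74 for APOC3. For APOA2 the range over the 9 samples hardly shrank, from 1.44 to 1.34.

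**Figure D3:**
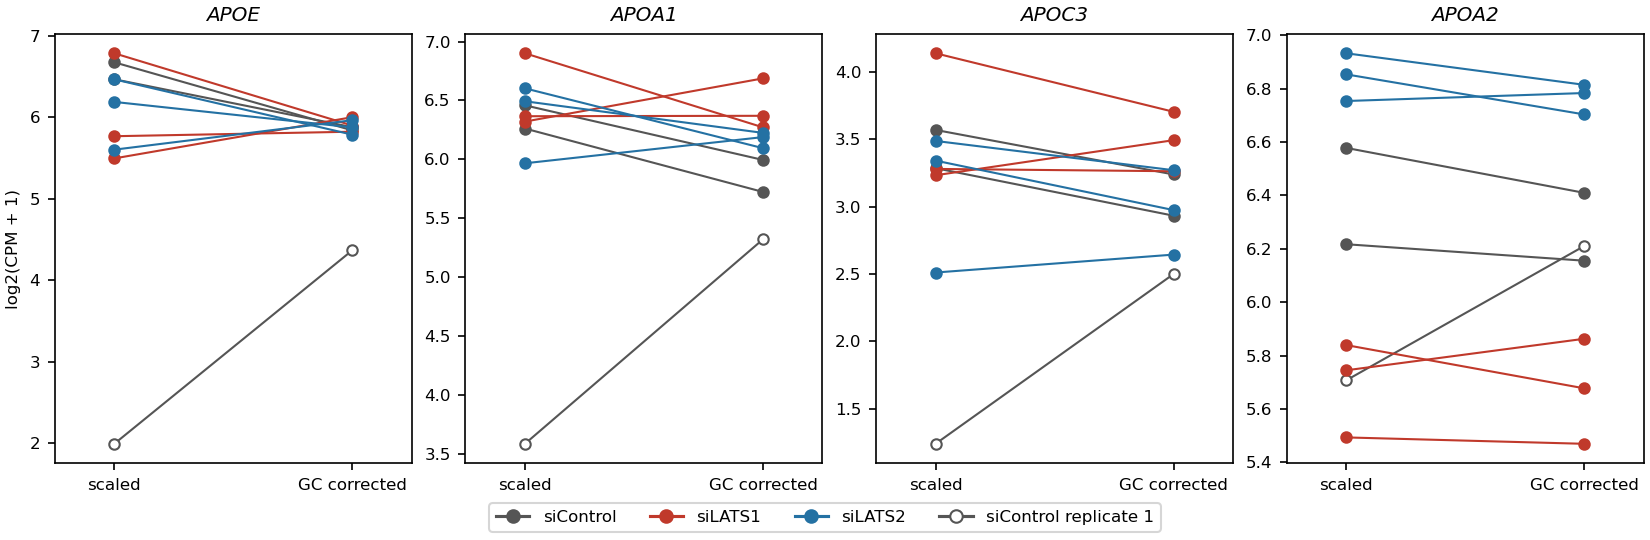
Values of APOE, APOA1, APOC3 and APOA2 in each sample as log2(CPM + 1), after TMM scaling (left of each panel) and after GC correction (right), with lines joining a sample and an open circle for siControl replicate 1. The 8 filled APOE points close up to a range of 0.21, and the 3 groups of APOA2 stand apart after correction.

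A change is called here at the threshold given in the methods of the study, an unadjusted p-value under 0.05 with an absolute log2 fold change of at least 0.58, in limma over all 9 samples, and the Benjamini-Hochberg adjusted p over all 12901 tested genes is given beside it. Fold changes are differences of log2(CPM + 1), which understates the change of low genes. A lower level can stand for fewer expressing cells or for less RNA in each cell, and these cannot be told apart in bulk samples. LATS1 itself, the target of siLATS1, had 110, 55.2 and 62.9 CPM in siControl, 27.1, 20.1 and 15.6 in siLATS1 and 54.7, 78.6 and 51.2 in siLATS2, so the siLATS1 samples lay below all others. LATS2 was not analysed here, so the lowering of the target in the siLATS2 samples was not checked. The comparisons of siLATS1 and siLATS2 with siControl use the same 3 siControl samples, and the direct comparison of siLATS1 with siLATS2 does not use them in its difference.

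Over all 9 samples, APOB was the only member called in siLATS1 against siControl, where it was lower, and 2.91% of all tested genes were called in that comparison. APOA2 was the only member called in siLATS2 against siControl, where it was higher and 0.271% of genes were called, and the only one called between siLATS1 and siLATS2, where it was lower in siLATS1 and 1.86% of genes were called. A count of 1 among 9 genes is not read as a result about the family. After adjustment over all genes, 0 members passed in each of the 3 comparisons in limma, beside 0.101% of genes in siLATS1 against siControl and 0% in the others. At an unadjusted p under 0.05, limma had 1, 1 and 2 members in siLATS1 against siControl, siLATS2 against siControl and siLATS1 against siLATS2. Of all 12901 tested genes, 746, 110 and 505 had such a p in the same order. In edgeR on the recovered reads 0 members passed adjustment, beside 5, 0 and 0 of all tested genes. In DESeq2 on these reads 1 passed, APOA2 in siLATS1 against siLATS2, with an adjusted p of 0.0043, where 0.775% of genes passed, beside 1.29% and 0% in the comparisons of siLATS1 and siLATS2 with siControl.

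The members called changed with the way siControl replicate 1 was handled. Without this sample they were APOA2 and APOH in siLATS1 against siControl (5.66% of genes called), 0 in siLATS2 against siControl (0.535%) and APOA2 between siLATS1 and siLATS2 (2.39%). After GC correction they were APOA1, APOA2, APOB and APOC3 in siLATS1 against siControl (3.14%), 0 in siLATS2 against siControl (0.278%) and APOA2 in the direct comparison (2.40%). With both they were APOA1, APOA2, APOB and APOH (4.53%), 0 (0.508%) and APOA2 (2.65%). Calls that also passed adjustment in limma were 0 members against siControl and APOA2 in the direct comparison without siControl replicate 1, where 0.310%, 0% and 0.147% of genes passed in the 3 comparisons in that order. They were APOA2 and APOB, 0, and APOA2 after GC correction (1.34%, 0% and 0.666%), and APOA1, APOA2, APOB and APOH, 0, and APOA2 with both (3.17%, 0% and 1.47%). APOA2 between siLATS1 and siLATS2 is the only member call shared by these 3 settings and the one over all 9 samples. That difference uses no siControl sample, so leaving out siControl replicate 1 reaches it only through scaling and error.

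**Figure D4:**
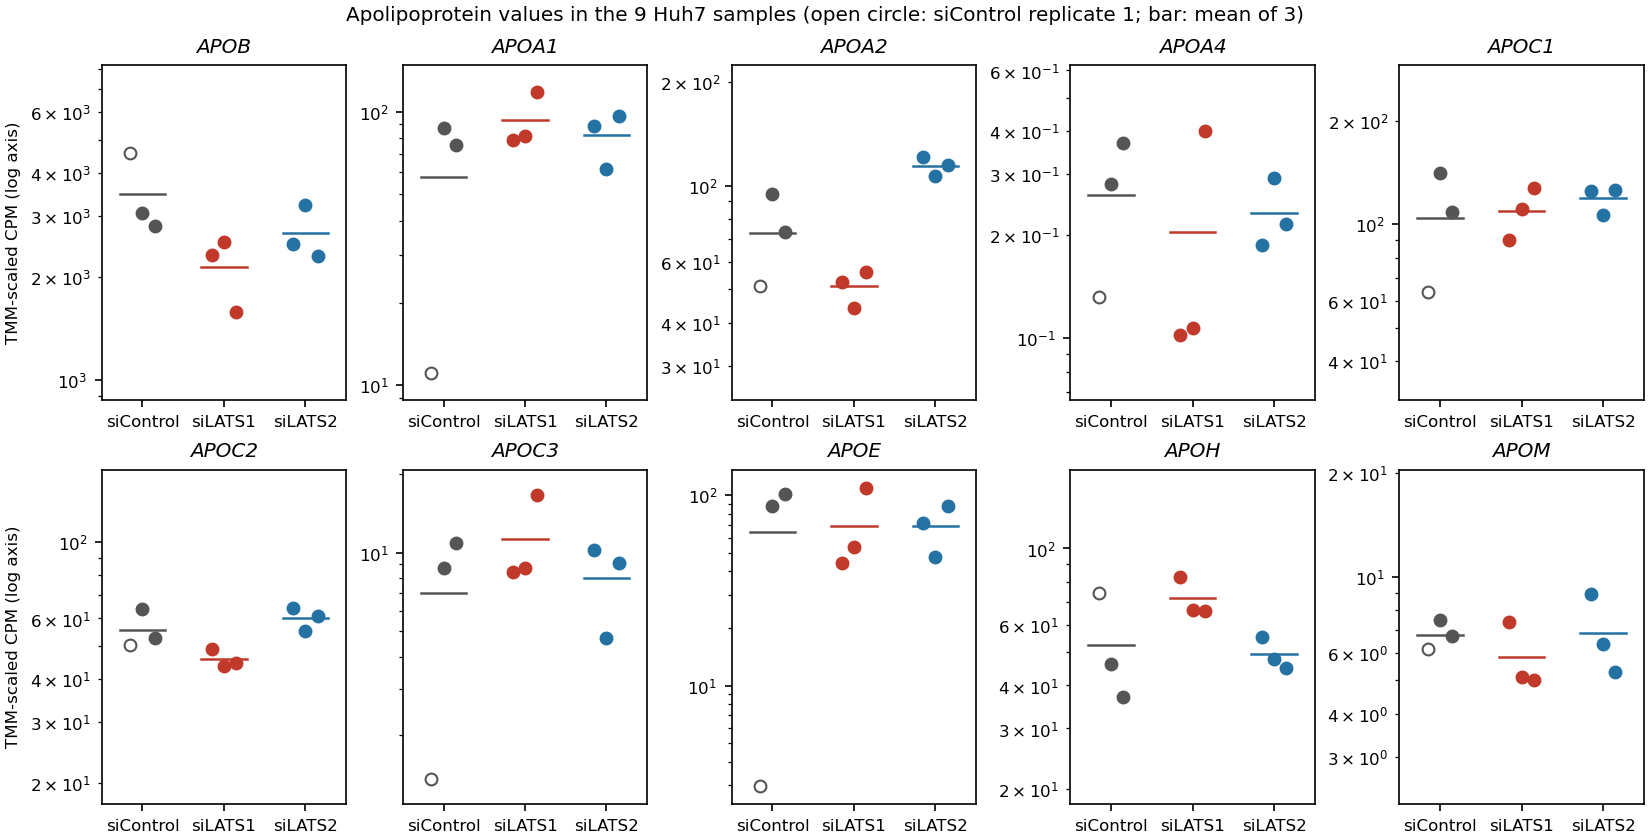
TMM-scaled CPM of the 10 apolipoproteins in each of the 9 Huh7 samples on log axes, 3 points per group with a bar at the mean and an open circle for siControl replicate 1. APOA2 is the only member in which all siLATS2 points (107 to 121 CPM) lie above all siControl and siLATS1 points (44.1 to 94.5 CPM).

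APOB, the scaffold of very-low-density and low-density lipoproteins, was lower in siLATS1. It had 4572, 3069 and 2804 CPM in siControl, 2306, 2520 and 1577 in siLATS1 and 2494, 3231 and 2294 in siLATS2. All siLATS1 samples lay below all siControl samples, and siLATS2 overlapped with both. The means were 3482 ± 954 CPM in siControl, 2134 ± 494 in siLATS1 and 2673 ± 494 in siLATS2 (SD, n = 3 each). The log2 fold change of siLATS1 against siControl was -0.70 (SE 0.25), with an unadjusted p of 0.0231 and an adjusted p of 0.691 in limma. Without siControl replicate 1, the highest sample, it was -0.50 with an unadjusted p of 0.0531 in limma, and without siLATS1 replicate 3, the lowest, it was -0.49 with 0.0992, so the call rested on each of these samples. After GC correction the 3 siControl values closed up to 11.58 to 11.78 on the log2 scale, above 10.82 to 11.28 in siLATS1. The corrected difference was -0.63 (SE 0.13), with an adjusted p of 0.0412 in limma, and -0.59 with an adjusted p of 0.0372 when siControl replicate 1 was also left out. For siLATS2 against siControl the log2 fold change was -0.36 (SE 0.25) and for siLATS1 against siLATS2 it was -0.34 (SE 0.25), neither of which passed.

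APOA2, the second main protein of high-density lipoprotein, showed the clearest difference of all members, between the siLATS1 and siLATS2 samples. Its level was 51.3, 94.5 and 73.4 CPM in siControl, 52.6, 44.1 and 56.3 in siLATS1 and 121, 107 and 115 in siLATS2. Every siLATS2 sample was above every sample of the other groups, and siLATS1 overlapped with siControl only through siControl replicate 1. The means were 73.1 ± 21.6 CPM in siControl, 51.0 ± 6.27 in siLATS1 and 114 ± 7.12 in siLATS2 (SD, n = 3 each). The difference between siLATS1 and siLATS2 was -1.15 on the log2 scale (SE 0.22), with an unadjusted p of 0.000709 and an adjusted p of 0.253 in limma. It barely moved with the setting, while its error did, and a siControl sample left out reaches it only through scaling and error. Without siControl replicate 1 it was -1.15 (SE 0.14), with an adjusted p of 0.0235 in limma, and after GC correction it was -1.10 (SE 0.11), with an adjusted p of 0.00794. With both, the adjusted p was 0.00104 in limma. Leaving out any other sample kept it between -1.06 and -1.22 and past the unadjusted threshold.

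Against siControl, the APOA2 difference split into 2 parts of opposite sign whose sizes depended on siControl replicate 1. In siLATS2 the log2 fold change was 0.68 (SE 0.22), with an unadjusted p of 0.0146 and an adjusted p of 0.95 in limma. It fell short of the fold threshold, at 0.43, without siControl replicate 1 and, at 0.51, after GC correction, and of the p threshold without siLATS2 replicate 1, with an unadjusted p of 0.0583 in limma. In siLATS1 it was -0.47 (SE 0.22), which did not pass. It passed at -0.72 (SE 0.16) without siControl replicate 1, with an adjusted p of 0.125 in limma and 5.66% of all genes called, and at -0.59 (SE 0.11) after GC correction, with an adjusted p of 0.0309 and 3.14% of genes called. After correction the 3 groups did not overlap at all, with 5.47 to 5.86 in siLATS1, 6.16 to 6.41 in siControl and 6.70 to 6.81 in siLATS2 on the log2 scale. The exons of APOA2 share 45.4% of their length with a gene annotated on the opposite strand, AL590714.1, and the strand setting used in counting is not given in the sources used here, so reads of the latter could be counted with APOA2.

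APOA1, the main protein of high-density lipoprotein and the activator of cholesterol esterification in plasma, was called in siLATS1 only after GC correction. Its values were 11.02, 87.0 and 75.8 CPM in siControl, 79.0, 81.5 and 118 in siLATS1 and 89.1, 61.6 and 96.2 in siLATS2. Outside siControl replicate 1 all groups overlapped. Over all samples the log2 fold change was 1.09 (SE 0.68) in siLATS1 and 0.92 (SE 0.68) in siLATS2, neither of which passed, and without siControl replicate 1 these values were 0.16 (SE 0.23) and -0.02 (SE 0.23). GC correction gave 0.76 (SE 0.17) in siLATS1, past the unadjusted threshold with an adjusted p of 0.0553 in limma, and 0.59 (SE 0.12) with an adjusted p of 0.0243 when siControl replicate 1 was also left out. The direction of APOA1 in siLATS1 was thus upward in each of the 4 settings, but its call came only with the correction. Between siLATS1 and siLATS2 the difference was 0.17 (SE 0.68) over all samples and 0.27 (SE 0.17) after correction. An antisense gene, APOA1-AS, shares 13.7% of the transcript and reached at most 0.0402 CPM.

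APOM was low and did not differ between the groups beyond its spread. It had 6.15, 7.51 and 6.71 CPM in siControl, 7.38, 5.11 and 5.02 in siLATS1 and 8.92, 6.38 and 5.27 in siLATS2, so that the 3 groups overlapped. The log2 fold change was -0.20 (SE 0.22) in siLATS1 and -0.01 (SE 0.22) in siLATS2, and neither passed in any of the 4 settings.

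Among the small exchangeable apolipoproteins, APOC2, the cofactor that lipoprotein lipase needs, lay lower in siLATS1 without being called. It had 50.3, 63.8 and 52.7 CPM in siControl, 49.0, 43.7 and 44.4 in siLATS1 and 64.4, 55.2 and 60.8 in siLATS2. All siLATS1 samples were below all samples of both other groups, which overlapped with each other. The log2 fold change was -0.27 (SE 0.14) against siControl, with an unadjusted p of 0.0956 and an adjusted p of 0.979 in limma. Against siLATS2 it was -0.39 (SE 0.14), with an unadjusted p of 0.0269 in limma and short of the fold threshold. Without siControl replicate 1 these differences were -0.35 and -0.39, and after GC correction -0.33 and -0.34 (SE 0.09 each), with unadjusted p of 0.0055 and 0.00449 in limma. They were under the fold threshold in each of these settings. APOC2 is uncertain as a single gene, since the read-through gene APOC4-APOC2 holds 100% of its transcript. The values of the read-through gene, 43.7 to 64.5 CPM, followed those of APOC2 with an SD of the log2 ratio of 0.0012, while APOC4 itself reached at most 0.0803 CPM.

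APOC1, which inhibits lipase and lipid transfer, was not called in any comparison. It had 63.6, 141 and 108 CPM in siControl, 89.9, 111 and 127 in siLATS1 and 125, 106 and 125 in siLATS2, and apart from the low siControl replicate 1 the groups overlapped. Its log2 fold change was 0.13 (SE 0.28) in siLATS1 and 0.26 (SE 0.28) in siLATS2, and both values turned negative without siControl replicate 1, at -0.20 and -0.08. APOC3, an inhibitor of lipoprotein lipase, had 1.36, 8.76 and 10.9 CPM in siControl, 8.41, 8.72 and 16.6 in siLATS1 and 10.2, 4.70 and 9.14 in siLATS2. These groups overlapped as well. The log2 fold change of APOC3 was 0.85 (SE 0.60) in siLATS1 and 0.42 (SE 0.60) in siLATS2, and 0.11 and -0.33 without siControl replicate 1. With GC correction APOC3 passed the unadjusted threshold in siLATS1, at 0.60 (SE 0.22) with an adjusted p of 0.212 in limma, and did not when siControl replicate 1 was also left out, at 0.41 (SE 0.19).

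APOE, the ligand through which remnant particles bind their receptors, changed direction with a single sample. Its values were 2.99, 87.5 and 101 CPM in siControl, 44.1, 53.5 and 109 in siLATS1 and 71.9, 47.6 and 87.4 in siLATS2. Over all samples APOE had log2 fold changes of 0.97 (SE 1.11) in siLATS1 and 1.04 (SE 1.11) in siLATS2, and without siControl replicate 1 of -0.57 (SE 0.37) and -0.50 (SE 0.37). The sign thus turned with 1 sample, and the difference passed in neither case. GC correction over all samples gave 0.55 (SE 0.34) in siLATS1 and 0.51 (SE 0.34) in siLATS2, which did not pass either. With GC correction and without siControl replicate 1, the values were 0.043 (SE 0.083) in siLATS1 and 0.014 (SE 0.083) in siLATS2. The SE of APOE was then the smallest of the 9 members, down from the largest in the uncorrected comparison.

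APOH, the phospholipid-binding plasma protein, lay higher in siLATS1 than in siLATS2, a difference called only when no scaling factor was used. Its values were 74.1, 46.3 and 37.03 CPM in siControl, 82.8, 66.4 and 65.7 in siLATS1 and 55.4, 47.8 and 44.9 in siLATS2. All siLATS1 samples were above all siLATS2 samples, and siLATS1 overlapped with siControl only through siControl replicate 1. The log2 difference from siLATS2 was 0.53 (SE 0.25), with an unadjusted p of 0.0667 in limma, and it stayed at 0.53 without siControl replicate 1 and after GC correction, under the fold threshold. With no scaling factor it was 0.60, with an unadjusted p of 0.0372 in limma, and passed, and without siLATS2 replicate 1 it was 0.62 with 0.0742 and did not. With GC correction and without siControl replicate 1, the adjusted p of this difference was 0.0458 in limma, and it was not called. Against siControl the log2 fold change of siLATS1 was 0.49 (SE 0.25), which did not pass, and 0.75 (SE 0.17) without siControl replicate 1, which passed the unadjusted threshold with an adjusted p of 0.13 in limma. With GC correction and without that sample it was 0.66 (SE 0.13), with an adjusted p of 0.0222 in limma. For siLATS2 the log2 fold change from siControl was -0.03 (SE 0.25).

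**Figure D5:**
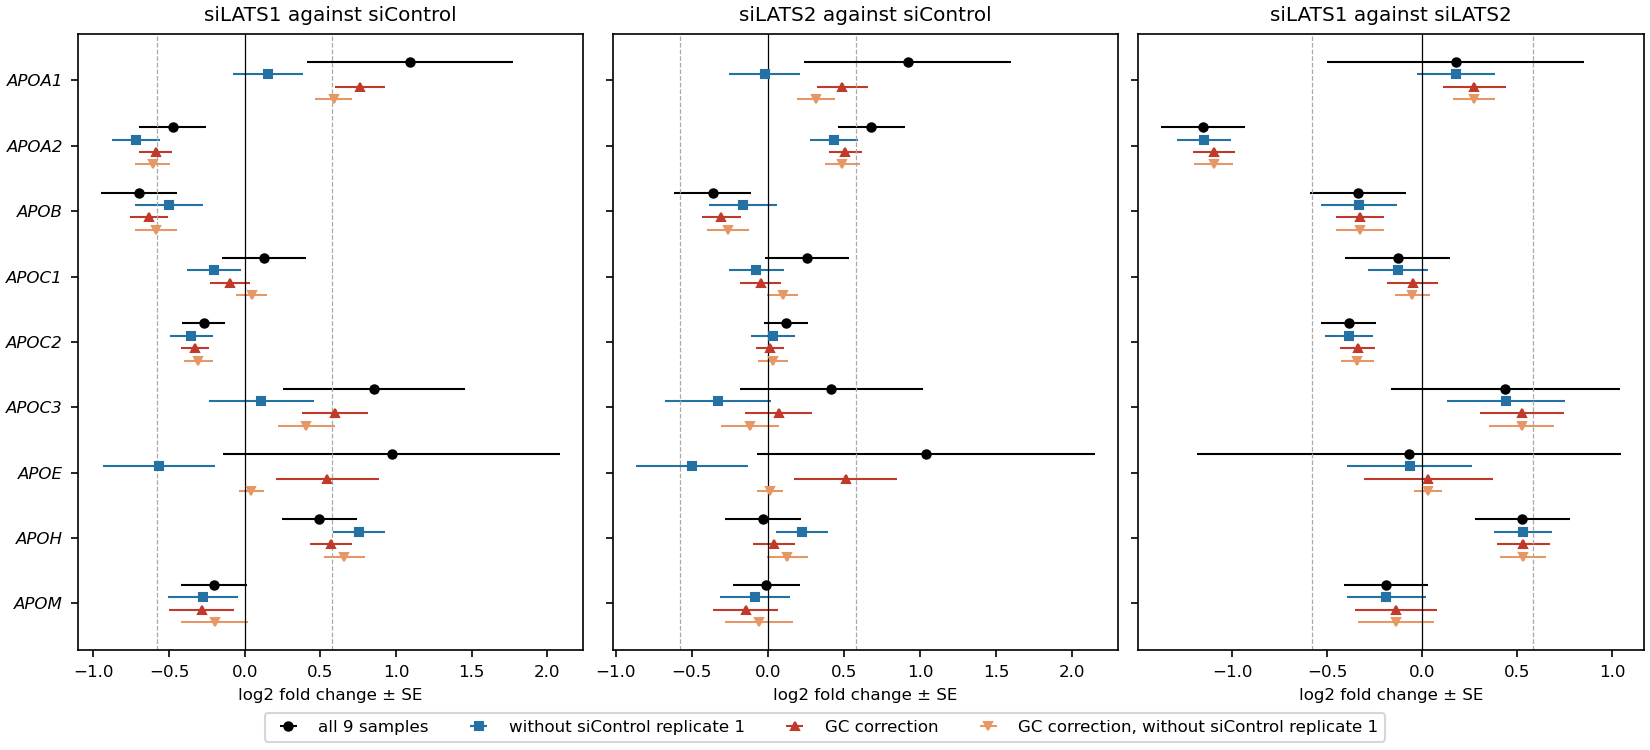
Log2 fold change ± SE of the 9 tested apolipoproteins in the 3 comparisons, over all 9 samples (black), without siControl replicate 1 (blue), after GC correction (red) and with both (orange); dashed lines mark 0.58 in each direction. APOA2 in siLATS1 against siLATS2, whose difference uses no siControl sample, keeps its place at -1.15 to -1.10 in all 4 settings. In that comparison APOE also hardly moves when siControl replicate 1 is left out, at -0.07 in both cases. APOE, APOA1 and APOC3 shift and tighten in the comparisons with siControl, where APOA2 shifts too.

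Counting only whether the 3 values of a group lay wholly on 1 side of the other 3 gives APOB and APOA2 again, with APOC2 and APOH beside them. In siLATS1 against siControl APOB and APOC2 were wholly lower, where 8.48% of all tested genes did not overlap, and in siLATS2 against siControl APOA2 was wholly higher, where 3.51% did not overlap. Between siLATS1 and siLATS2, APOA2 and APOC2 were wholly lower in siLATS1 and APOH wholly higher, where 12.4% did not overlap. The exact two-sided permutation test gives p = 0.1 for each of these, the smallest p that 3 against 3 samples allow.

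The neighbouring steps of lipoprotein metabolism were described through 5 gene lists, of which the genes past the unadjusted threshold are named. In limma, 4 of the 68 tested genes of the lists were called in siLATS1 against siControl, beside 2.91% of all genes. Between siLATS1 and siLATS2 4 were called, beside 1.86%, and in siLATS2 against siControl 0, beside 0.271%. Whether these counts differ from those shares was not tested. Lipoprotein assembly and secretion had 12 tested genes, among them the lipid transfer subunit MTTP that loads APOB. In limma, edgeR and DESeq2, 0 of them were called in each of the 3 comparisons. At most 1 of the 12 had an unadjusted p under 0.05, beside 746, 110 and 505 of all 12901 genes in limma. Calls in limma made up 2.91%, 0.271% and 1.86% of all genes. At these shares a count of 0 among 12 genes is not read as a result about the list. The median log2 fold change of the list was 0.06 in siLATS1 against siControl, beside 0.02 for all tested genes. Among 5 tested genes of other apolipoproteins, SAA4, a constitutive serum amyloid protein of high-density lipoprotein, was lower in siLATS1. SAA4 had 54.3, 55.3 and 38.2 CPM in siControl, 29.0, 28.8 and 17.5 in siLATS1 and 59.1, 55.3 and 37.9 in siLATS2, so that siLATS1 lay below both other groups. Its log2 fold change was -0.96 (SE 0.27) against siControl, with an adjusted p of 0.45 in limma, and -0.997 (SE 0.27) against siLATS2. In DESeq2 on the recovered reads SAA4 passed adjustment in both comparisons, with adjusted p of 0.0442 and 0.0479. In edgeR on the same reads it did not, with adjusted p of 0.352 and 0.474.

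Among 13 tested genes of lipases and lipid transfer, PON1, the paraoxonase carried on high-density lipoprotein, was higher in siLATS1. PON1 had 15.7, 9.32 and 7.41 CPM in siControl, 24.2, 17.0 and 20.6 in siLATS1 and 9.98, 10.7 and 10.4 in siLATS2, and all siLATS1 samples were above all others. The log2 fold change was 0.92 (SE 0.26) against siControl, with an adjusted p of 0.464 in limma. Against siLATS2 it was 0.92 (SE 0.26), with an adjusted p of 0.61 in limma. In edgeR and DESeq2 over all samples PON1 did not pass adjustment in either comparison. Without siControl replicate 1 the log2 fold change against siControl was 1.19 (SE 0.18), with an adjusted p of 0.045 in limma. After GC correction it was 1.02 (SE 0.17), with an adjusted p of 0.0198 in limma. LIPG, the endothelial lipase that acts on high-density lipoprotein, was lower in siLATS1 than in siLATS2, with 6.12, 6.47 and 6.02 CPM against 10.0, 12.1 and 10.9. Its log2 difference was -0.73 (SE 0.16), with an adjusted p of 0.361 in limma, 0.343 in edgeR and 0.00267 in DESeq2. Against siControl, with 8.17, 10.8 and 9.15 CPM, it was -0.52 (SE 0.16) and not called in limma over all samples. After GC correction it was -0.46 (SE 0.19) and not called either. It was called without siControl replicate 1, at -0.61 (SE 0.15), and in edgeR and DESeq2 over all samples, at -0.63 and -0.59.

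Of 12 tested lipoprotein receptors and their regulators, LRP8, a receptor for APOE, was called in siLATS1 against siControl, at -0.58 (SE 0.15). Its adjusted p was 0.363 in limma, 0.232 in edgeR and 0.00166 in DESeq2. LRP8 had 68.3, 56.0 and 55.2 CPM in siControl and 42.7, 41.5 and 34.7 in siLATS1, which did not overlap. It fell short of the fold threshold without siControl replicate 1, at -0.50, and after GC correction, at -0.57. Among 26 tested transcriptional regulators of apolipoprotein genes, ONECUT1, a liver transcription factor, was higher in siLATS1. ONECUT1 had 17.4, 17.7 and 16.3 CPM in siControl, 26.8, 19.8 and 33.6 in siLATS1 and 17.1, 13.5 and 17.6 in siLATS2. Its log2 fold change was 0.59 (SE 0.21) against siControl, with an adjusted p of 0.696 in limma, and 0.68 (SE 0.21) against siLATS2. In siLATS2 against siControl 0 of the 68 tested genes of the 5 lists were called in limma, edgeR and DESeq2. Limma called 0.271% of all genes there. At an unadjusted p under 0.05 alone there were 1, 1 and 2 of the 68, beside 110, 111 and 135 of all 12901 genes. Without siControl replicate 1, where 0.535% were called, limma called NR1H2, the oxysterol receptor LXR beta, at -1.13 (SE 0.35) with an adjusted p of 0.999, and over all samples its value was -0.0048 (SE 0.84).

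For each tested member, the gene with the most similar profile was taken as the one whose log2 ratio to it varied least over the 9 samples. This was PMM1 for APOA1 (SD 0.15), PFKM for APOA2 (0.24), ETF1 for APOB (0.06), FOXM1 for APOC1 (0.04), EFEMP2 for APOC3 (0.10), LRP5 for APOE (0.11), ITIH2 for APOH (0.09) and SNORD49A for APOM (0.16). For APOC2 it was the read-through gene that contains it. APOA2 had the least close partner of all members. The rank of the nearest other apolipoprotein among 12900 genes varied widely between members. It was 88 for APOA2 with APOC2, 265 for APOA1 with APOC3 and 448 for APOE with APOA1. For APOC3 with APOA1 it was 519, and for APOC2 with APOM 788. Far lower in the ranking were APOC1 with APOC2 at 3615, APOB with APOC2 at 5750 and APOH with APOM at 7187. The pair APOM and APOC2 ranked 30 from the side of APOM, with an SD of 0.20. The partners of the GC-rich members APOA1, APOC3 and APOE had 58.8%, 61.6% and 62.9% G and C, and ETF1 and ITIH2, the partners of APOB and APOH, had 42.1% and 45.6%. Genes of like base composition share the departure of siControl replicate 1, which enters this measure.

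Because LATS kinases act on gene expression through YAP and the TEAD factors, the promoters were read for the TEAD core letters GGAATG on both strands. RefSeq promoters (GRCh38.p14, the 250 bases before a transcription start) were given for 7 of the 10 members, but not for APOA1, APOB and APOC3. The core letters were found before APOA4 and before 1 of 3 starts of APOE, and in 11.9% of all 35116 promoters. Letters bound by HNF4A, a main activator of apolipoprotein genes, were read as CAAAGTCCA, CAAAGGTCA or CAAAGTTCA. They were found in 0 of the 7 members and in 0.911% of all promoters, so the 0 is not read as a result. The promoter of APOA2, the member that differed most between the siLATS1 and siLATS2 samples, held neither. It is shown for this reason, from chr1:161223629-161223878 in GRCh38.p14, minus strand, 5′ to 3′ up to the base before the start, without capitals since no searched letters were found.
APOA2 promoter: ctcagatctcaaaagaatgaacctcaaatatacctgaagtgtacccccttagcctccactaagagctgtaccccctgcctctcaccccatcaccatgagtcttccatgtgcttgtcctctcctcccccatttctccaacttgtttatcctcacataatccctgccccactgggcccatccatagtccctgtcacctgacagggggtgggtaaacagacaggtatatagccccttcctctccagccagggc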

How the data were processed

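Total RNA of 9 Huh7 samples (3 siControl, 3 siLATS1, 3 siLATS2) was made into stranded libraries. The labels name a kit that removes ribosomal RNA, whereas the methods of the study speak of sequenced poly-A+ RNA. The authors mapped reads uniquely with STAR to GRCh37 (hg19), counted them over RefSeq exons and deposited CPM per gene. At a tolerance of 0.01, 100% of the CPM values were whole multiples of 1 read, which gave the reads and the depth, and 1 row per file without a gene number was left out of all tests (7.69 to 29.1 CPM). CPM were scaled by TMM factors (edgeR 4.0.16) computed on all genes, with 30% and 5% trimmed, 12901 genes reaching 1 CPM in 3 or more samples were kept, and log2(CPM + 1) was fitted with limma 3.58.1 (trend) over all 9 samples in R 4.3.3. Symbols were given to 20474 of 20575 gene numbers. Transcript length, exons and GC content came from the GRCh37 annotation and were found for 12606 of the tested genes (97.7%). The GC correction subtracts a lowess curve (span 0.3) in each sample. Replicate 1 to 3 of different groups were not treated as pairs. Of 9 pairs with the same number, 5 deviated together (r above 0.1), with r from -0.874 to 0.920. Pairs with unlike numbers had r from -0.915 to 0.872, so these values cannot show whether replicates were paired. The scripts were tested on simulated data.

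Members and gene lists were chosen with earlier results of these data known. Named are the 10 members, LATS1, the nearest gene of each member, and from each list the genes past the unadjusted threshold, at most 4 per list and comparison; NR1H2 was added after its values were seen. Alternatives were other scalings, filters and pseudocounts, the 6 samples compared alone, a replicate block, count models (edgeR, DESeq2 1.42.0 on the recovered reads), each sample left out and the GC correction. The methods describe biological triplicates. With 3 samples per group p-values measure the spread between these samples only.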

Additional observations from a re-analysis of the deposited data

Results flagged for a closer look

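APOA2 stood out because the siLATS1 and siLATS2 samples lay on opposite sides of the siControl mean. Its 3 siLATS1 values (44.1 to 56.3 CPM) were all below the siControl mean of 73.1 CPM and its 3 siLATS2 values (107 to 121 CPM) all above it. The siLATS1 values overlapped with siControl replicate 1, at 51.3 CPM, and the difference of siLATS1 from siControl was not called, at -0.47 with an unadjusted p of 0.0626 in limma. The direct test of siLATS1 against siLATS2 gave a log2 fold change of -1.15 (SE 0.22), with an unadjusted p of 0.000709 and an adjusted p of 0.253 in limma. The adjusted p was 0.0235 without siControl replicate 1 and 0.00794 after GC correction, and lay between 0.00104 and 1 over all alternatives. The siControl samples, with 51.3 to 94.5 CPM, spread more widely than either group.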

How the results depend on the processing

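Of 30 log2 fold changes (9 members and LATS1 in 3 comparisons), recomputed under 22 alternatives, 247 of 270 values that left out a sample and 361 of 390 others kept direction and side of the threshold. Members called in siLATS1 against siControl numbered 1, beside 376 of all 12901 tested genes, and 2 without a scaling factor, beside 447. They numbered 4 in each of the 3 GC corrections, beside 396, 411 (replicate block) and 571 (without siControl replicate 1) of 12606 genes. With a sample left out they numbered 0 to 2, beside 234 to 730 genes. In siLATS2 against siControl they numbered 1 (35 genes), 0 in the 3 GC corrections (35, 43 and 64) and 0 to 1 with a sample left out (11 to 69). Between siLATS1 and siLATS2 they numbered 1 (240 genes over all 9 samples), or 2 without a scaling factor (277).

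For all genes, 376 were called in siLATS1 against siControl, 571 after GC correction without siControl replicate 1, and 234 (without siLATS1 replicate 3) to 730 (without siControl replicate 1) when a sample was left out. After adjustment 13 passed, against 8 with at least 10 reads required in every sample, 0 with only the 6 samples compared, 5 in edgeR, 166 in DESeq2, 169 after GC correction, 399 after this without siControl replicate 1, and 0 to 40 with a sample left out. The replicate block left 0, and 235 with GC correction. In the labels same-numbered samples share only a number, and the block without GC correction changed no call of a member. In siLATS2 against siControl 35 genes were called (28 higher, 7 lower), 72 with a pseudocount of 0.1, 22 with only the 6 samples compared, 68 in edgeR, 70 in DESeq2, 64 after GC correction without siControl replicate 1, and 11 (without siLATS2 replicate 3) to 69 with a sample left out. The split was 30 higher and 39 lower without siControl replicate 1 and 13 and 22 after GC correction. Between siLATS1 and siLATS2 0 genes passed after adjustment, 3 with no filter, 1 with a pseudocount of 0.5 and 100 in DESeq2. After GC correction 84 passed, 97 with the replicate block added to it and 185 with siControl replicate 1 left out of it. With a sample left out and no GC correction 0 to 19 passed. The causes were not tested.

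Directions turned for differences that were not called. In siLATS1 against siControl APOC1 was -0.10 after GC correction, also with the replicate block, and -0.20 to 0.33 with a sample left out, and APOE -0.57 to 1.78. In siLATS2 against siControl GC correction, with or without the replicate block, gave -0.048 for APOC1 and 0.038 for APOH. Without siControl replicate 1 the correction gave -0.12 for APOC3 and 0.13 for APOH, and no scaling factor gave 0.0026 for APOM. With a sample left out the ranges were -0.021 to 1.37 for APOA1, -0.076 to 0.45 for APOC1, -0.33 to 0.84 for APOC3, -0.50 to 1.85 for APOE, -0.26 to 0.23 for APOH, -0.23 to 0.14 for APOM and -0.52 to 0.019 for LATS1. Between siLATS1 and siLATS2 APOE was 0.0043 without a scaling factor, 0.0011 in edgeR, 0.020 in DESeq2, 0.032 after GC correction with or without the replicate block, 0.029 when siControl replicate 1 was left out of it, and -0.44 to 0.18 with a sample left out, when APOA1 was -0.014 to 0.30. With 3 samples per group and a siControl sample that departs with base composition, APOE, APOA1 and APOC3 have the widest errors, and a depth of 3 to 10 reads limits APOA4.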
